A study of Anthurium andraeanum with 18 samples.

Results

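Small heat shock proteins were followed in leaves of Anthurium andraeanum, an ornamental aroid, through a stepwise cooling. The set holds the 35 transcript groups, of 132108 in the assembled table, whose best protein match has a name of the small heat shock type (a molecular mass in kDa followed by a class or by "heat shock", or the words "small heat shock protein"). A transcript group is a set of assembled transcripts treated as 1 gene, and identifiers are printed here without the prefix TRINITY_. Of the 35 genes, 31 matched a plant protein: 17 of cytosolic class I, 4 of cytosolic class II, 1 each of class III, of the endoplasmic reticulum class IV and of class VI, 3 of the chloroplast, 2 of the mitochondrion, 1 of the peroxisome and 1 with no class in its name. The other 4 matched animal or fungal proteins and are described last. The names fit an annotation that did not enter the choice: 28 of the 31 plant matches carry the HSP20 domain, and all 31 carry the KEGG orthology number for HSP20 family proteins (K13993). The 3 without the domain are the short groups DN39471_c1_g4, DN39471_c1_g3 and DN52658_c2_g10, of 352, 242 and 326 bases. Seen the other way, 34 genes in the whole table carry the domain, and 30 of them are in the set.

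Small heat shock proteins are ATP-independent chaperones built around an alpha-crystallin (HSP20) domain. They assemble into large oligomers, bind proteins that begin to unfold and hold them in a state from which HSP70 and the HSP101/ClpB disaggregase can refold them. Plants have an unusually large family of them, with separate classes in the cytosol, chloroplast, mitochondrion, endoplasmic reticulum and peroxisome. In leaves most are nearly silent until heat or another stress makes heat stress transcription factors active, and some are also made in seeds and in the cold.

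The study sequenced total RNA from leaves of full-flowering plants of 2 cultivars, Fantasy love and Oregon, with 3 libraries in each of 6 groups. Cooled plants of either cultivar were stepped down from 15 °C to 6 °C and on to 4 °C, staying 3 days at each step, so that leaves sampled at 4 °C had also been cold for longer than those sampled at 6 °C. Control plants of either cultivar stayed at 25 °C, and all plants had 12 h of light per day. The time given for controls is 0 days in one label and, for Oregon, 3 days in another, so whether control and cooled leaves were of 1 age cannot be told apart from the labels. The labels call the libraries biological replicates without giving the number of plants in each, and p-values below measure only the spread between these samples.

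Libraries held 14769977 to 21911156 estimated counts. In the tests below a gene was called when its Benjamini-Hochberg adjusted p in edgeR's quasi-likelihood test, adjusted over the 51670 genes with enough counts, was below 0.05 and its change was at least 2-fold (1 on the log2 scale). All 31 plant matches and 2 of the other 4 had enough counts. Levels within a gene are in CPM (estimated counts scaled to library size, with TMM scaling between libraries), and levels between genes are in TPM, which also corrects for transcript length. Libraries of a group are listed in the order of their replicate numbers.

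A pair of Fantasy love libraries stood apart for these genes. Replicate 3 of the 25 °C group was the highest of its group in 29 of the 31 plant matches, against 30.2% of the 51670 genes tested, and its CPM was a median of 3.32 times the mean of the other two libraries (range 0.924 to 15.9), against 0.95 over the genes tested. Replicate 2 of the 6 °C group was the lowest of its group in 24 of the 31, against 42.5% of the genes tested. That library also had 4.00% of its counts in transcripts whose best match is ART2 or TAR1, names given to proteins predicted from ribosomal DNA, against 0.179% to 0.99% in the other libraries. Counts of members called in Fantasy love and their medians are therefore also given without 1 or both of these libraries, as are the values of named members that change by much, while the values by library show both. The tissue labels were checked against marker lists. Chlorophyll a-b binding and rubisco small subunit transcripts, which mark mesophyll, took 6.66% to 7.69% of counts in Fantasy love and 6.01% to 7.51% in Oregon at 25 °C. In the cold they took 0.479% to 1.13% in Fantasy love and 0.578% to 1.15% in Oregon. All of the 26 mesophyll, 12 guard cell, 26 xylem, 6 phloem and 3 epidermis markers were detected. At 4 °C guard cell markers took 0.000369% to 0.000538% in Fantasy love, against 0.00361% to 0.00455% at 25 °C, and 0.000552% to 0.00113% in Oregon, against 0.00155% to 0.00189%. Xylem markers took 0.0176% to 0.0258% at 4 °C in Fantasy love, against 0.0648% to 0.107%, and 0.0270% to 0.0390% in Oregon, against 0.129% to 0.152%. Phloem markers took 0.0104% to 0.0134% at 4 °C in Fantasy love, against 0.00628% to 0.00660%, and 0.0139% to 0.0189% in Oregon, against 0.00695% to 0.00895%. Epidermis markers took 5.85e-05% to 0.000126% at 4 °C in Fantasy love, against 0.00547% to 0.0124%, and 0.000360% to 0.000456% in Oregon, against 0.00655% to 0.00755%. Marker shares thus shifted with temperature in both cultivars, and their part in the results below was not tested. In whole leaves, fewer cells of a type and less RNA per cell cannot be told apart.

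Oregon leaves carried very little small heat shock protein RNA at 25 °C and a great deal of it in the cold, while Fantasy love leaves carried much of it at every temperature. Summed over the 35 genes, Oregon libraries had 544, 510 and 463 TPM at 25 °C, 22291, 12323 and 13314 TPM at 6 °C, and 18544, 20671 and 26253 TPM at 4 °C. Fantasy love libraries had 4456, 3007 and 15166 TPM at 25 °C, 8486, 1605 and 13153 TPM at 6 °C, and 13218, 15732 and 14148 TPM at 4 °C. Every cold Oregon library was above every Oregon control, and every Fantasy love control was above every Oregon control, whereas in Fantasy love the 25 °C libraries overlapped those of both cold groups. The mean at 4 °C was 43.2 times that at 25 °C in Oregon and 1.9 times in Fantasy love, and 3.85 times in Fantasy love without replicate 3 of its controls. At 6 °C the ratio to 25 °C was 31.6 in Oregon and 1.03 in Fantasy love, and 2.90 in Fantasy love without replicate 2 at 6 °C and replicate 3 at 25 °C. At 25 °C the Fantasy love mean was 14.9 times the Oregon mean, and 7.38 times without replicate 3 of the Fantasy love controls. As a share of all estimated counts, the Oregon means were 0.0651% ± 0.00421 at 25 °C, 1.13% ± 0.365 at 6 °C and 1.62% ± 0.293 at 4 °C (± SD, n = 3 each). By that share the ratios in Oregon were 17.4 at 6 °C and 24.9 at 4 °C, and the Fantasy love mean at 25 °C was 8.04 times the Oregon mean with all libraries. No test was made on these sums, since the members were chosen with results of these data known.

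**Figure D1:**
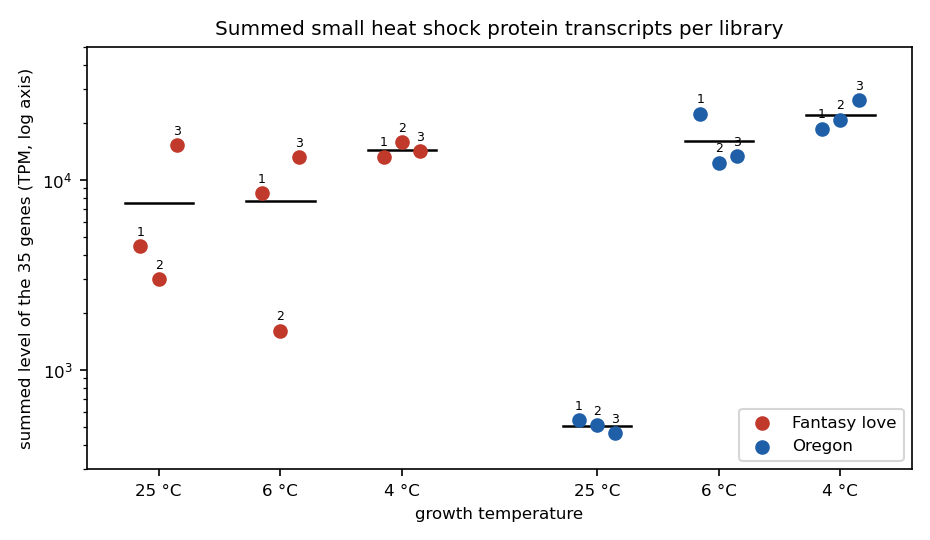
Summed level of the 35 small heat shock protein genes in each library (TPM, log axis) by growth temperature, Fantasy love left and Oregon right, with replicate numbers and black lines for group means. Oregon controls sit at 463 to 544 TPM, below all other libraries, and the Fantasy love groups spread from 3007 to 15166 TPM at 25 °C and from 1605 to 13153 TPM at 6 °C.

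Among all transcripts, the family reached the top of the expression range in the cold. Of the 100 genes with the highest TPM, 10, 5 and 6 were small heat shock proteins in the Oregon libraries at 6 °C and 9, 10 and 10 at 4 °C, against 0 in each Oregon control. In Fantasy love they numbered 0, 0 and 6 at 25 °C, 3, 0 and 6 at 6 °C, and 8 in each library at 4 °C. HSP26.7 (DN46690_c0_g2), a chloroplast protein, ranked 5 among all genes in Oregon replicate 1 at 6 °C, and HSP23.6 (DN46798_c1_g4), a protein of the mitochondrion, ranked 5 in Oregon replicate 2 at 4 °C.

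In Oregon, 21 of the 33 genes tested rose and 4 fell at 6 °C, where 28.3% of all genes tested were called higher and 20.1% lower (48.4% in either direction). At 4 °C 21 rose and 5 fell, 2 of them with fungal matches, where 28.4% of all genes were called higher and 20.6% lower (49.0% in either). The median log2 fold change of the members was 5.73 at 6 °C and 6.13 at 4 °C, beside 0.36 and 0.39 over all genes tested. The same 21 genes, all plant matches, rose at both temperatures, and each of them was called in all 18 fits that left out 1 library. Of these, 6 were below the filter's minimum (10 counts in a library of median size, 0.553 CPM) in every Oregon control. They were tested only because they were high in other groups, so their rise is a description. The other 15 had counts at or above that minimum in at least 1 Oregon control. Of these, HSP22.0, DN57201_c1_g1 and DN39471_c1_g4, with 7, 8 and 9 counts, were below it in Oregon control 3. The filter asks for 3 libraries, so they too needed other groups to pass, and their rise is also a description. The 6 are HSP17.5-M DN32902_c0_g1, DN32902_c0_g3 and DN32902_c0_g5, DN39471_c1_g3 and HSP18, all of class I, and HSP17.7 of class II. All 21 together comprise 12 of the 17 class I genes, 3 of the 4 of class II, and those of class III and the endoplasmic reticulum. The remaining 4 are 1 of the 2 mitochondrial genes, 2 of the 3 chloroplast genes, and HSP21.9, which has no class in its name. The group means of the 21 ran from 0.0236 to 36.5 CPM in Oregon at 25 °C (median 2.0), from 5.93 to 2582 CPM at 6 °C (median 68.2) and from 11.8 to 4616 CPM at 4 °C (median 126). With quantile normalisation and limma the 4 °C split was 22 higher and 2 lower. That scaling lowered the median over all genes tested by 0.24 to 0.36 on the log2 scale in the 4 comparisons of cold with 25 °C, and DESeq2's size factors moved it by 0.11 in Oregon at 6 °C.

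**Figure D2:**
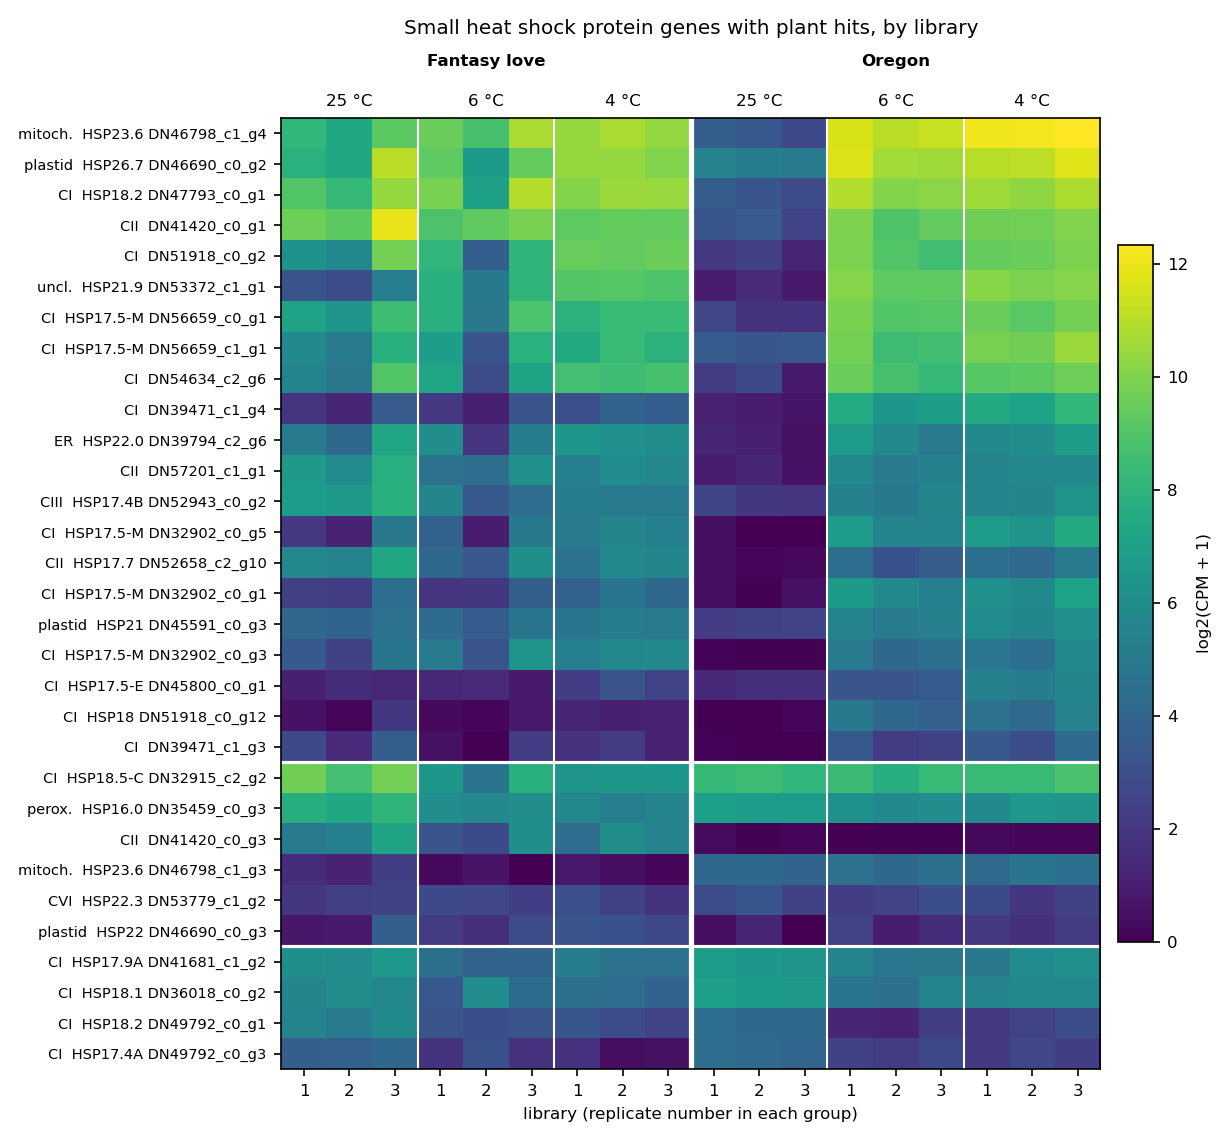
Level of the 31 genes with plant matches in every library, as log2(CPM + 1) on the colour scale; rows are ordered by mean level within the genes that rose in both Oregon cold groups (top), those with no such pattern (middle) and those that fell in Oregon (bottom), and C stands for cytosol class, plastid for chloroplast. Each of the 21 upper rows is darker in the Oregon 25 °C libraries than in the Oregon cold libraries of the same row. In Fantasy love at 25 °C replicate 3 is lighter than its neighbours in most of these rows.

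In Fantasy love the picture differed. At 6 °C 3 of the 33 genes tested rose and 9 fell, where 23.8% of all genes tested were called higher and 16.6% lower (40.4% in either direction). At 4 °C 4 rose and 10 fell, where 28.5% were called higher and 21.6% lower (50% in either). The median log2 fold change of the members was -0.83 at 6 °C and 0.21 at 4 °C, beside 0.30 and 0.39 over all genes tested. With replicate 3 of the 25 °C group left out the members' medians were 0.39 and 0.88, beside 0.38 and 0.46 over all genes then tested, so that at 6 °C the sign turned. With quantile normalisation and limma the splits were 2 higher and 12 lower at 6 °C, and 12 higher and 8 lower at 4 °C. Among all genes called at 6 °C, 58.8% were higher, and 48.7% with that scaling.

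These Fantasy love counts turn on single libraries. Without replicate 3 of the 25 °C group, 5 of the 34 genes then tested were called higher and 7 lower at 6 °C, and 15 higher and 8 lower at 4 °C. Without replicate 3 of the 6 °C group, 1 was called higher and 14 lower at 6 °C. In an added fit without both replicate 3 at 25 °C and replicate 2 at 6 °C, chosen after the values of these libraries were seen, 12 were called higher and 8 lower at 6 °C, and 17 higher and 8 lower at 4 °C. That added fit called, at both temperatures, HSP26.7 (1.74 and 2.64), HSP18.2 DN47793_c0_g1 (1.83 and 1.69) and DN51918_c0_g2 (2.02 and 3.42, all log2, 6 °C then 4 °C), none of which was called with all libraries. The falls of HSP18.5-C, HSP16.0, HSP17.9A, HSP17.4A, HSP17.4B, HSP18.2 DN49792_c0_g1 and HSP23.6 DN46798_c1_g3 were called with and without those 2 libraries, and so were the rises of HSP23.6 DN46798_c1_g4 and HSP21.9.

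**Figure D3:**
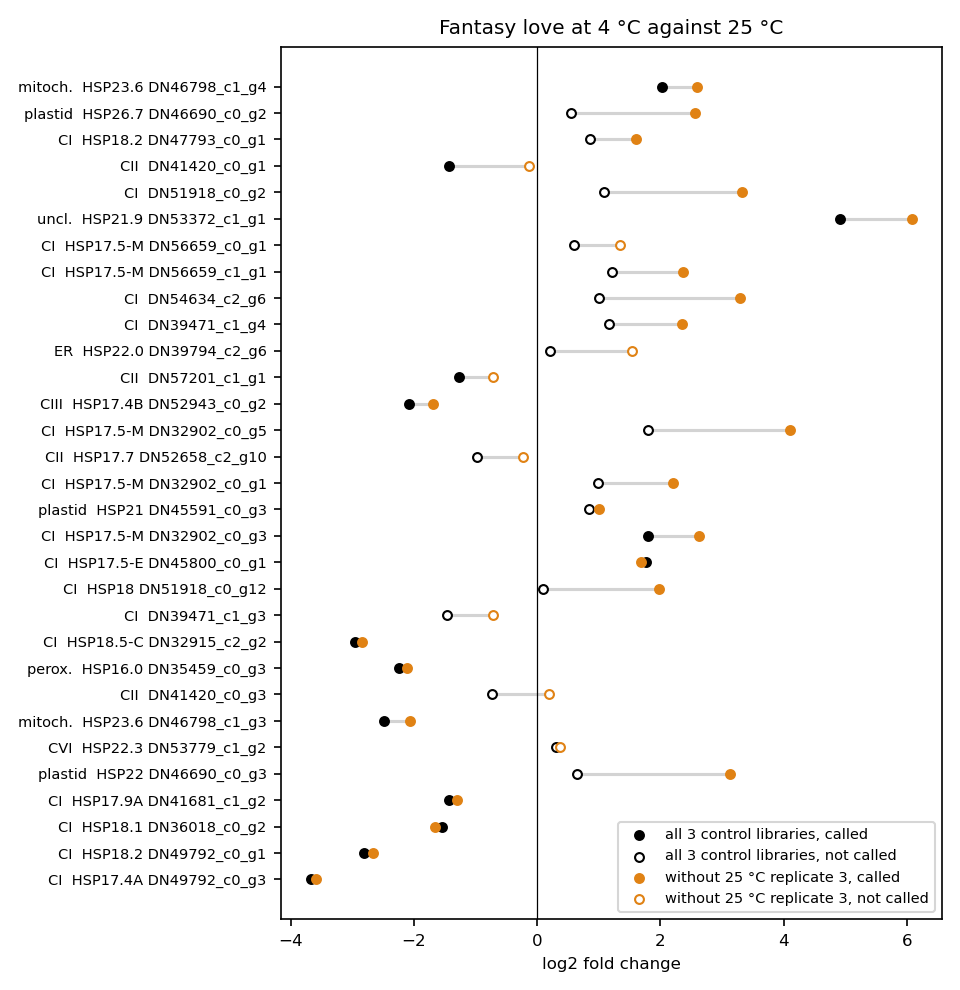
Log2 fold change of the 31 genes with plant matches in Fantasy love at 4 °C against 25 °C, with all 3 control libraries (black) and without replicate 3 at 25 °C (orange); filled points are called. Without that library 15 genes are called higher, against 4 with it, while HSP18.5-C and HSP16.0 are called lower in both.

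Cytosolic class I proteins are the most numerous small chaperones of the plant cytosol. The gene with the highest mean, HSP18.2 (DN47793_c0_g1), had 11.6, 8.40 and 6.17 CPM in Oregon at 25 °C, 1894, 1052 and 1174 CPM at 6 °C, and 1519, 1232 and 1797 CPM at 4 °C. Fantasy love libraries had 500, 299 and 1326 CPM at 25 °C, 914, 126 and 1910 CPM at 6 °C, and 1068, 1416 and 1387 CPM at 4 °C. The Oregon cold libraries were all far above the controls, and the Fantasy love groups overlapped. Its log2 fold change was 7.30 ± 0.81 at 6 °C (edgeR adjusted p = 1.08e-06) and 7.44 ± 0.81 at 4 °C (9.78e-07) in Oregon, where ± is the standard error. In Fantasy love it was 0.47 ± 0.61 at 6 °C (edgeR adjusted p = 0.551) and 0.86 ± 0.61 at 4 °C (0.240), and 1.61 at 4 °C without replicate 3 of the controls (0.0491).

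The other high class I genes had the same outline. DN51918_c0_g2 averaged 2.90 CPM in Oregon at 25 °C, 613 CPM at 6 °C and 799 CPM at 4 °C, and rose by 7.72 ± 1.17 and 8.10 ± 1.19 on the log2 scale at 6 °C and 4 °C. DN56659_c0_g1 and DN56659_c1_g1, both named HSP17.5-M, rose by 7.6 ± 0.83 and 5.75 ± 0.91 at 6 °C and by 7.75 ± 0.84 and 6.72 ± 0.95 at 4 °C. DN54634_c2_g6 rose by 7.24 ± 1.2 and 7.61 ± 1.22, and DN39471_c1_g4 by 7.17 ± 0.80 and 7.78 ± 0.82. For DN39471_c1_g4, below the filter's minimum in Oregon control 3, the rise is a description. None of these 5 was called in either Fantasy love comparison with all libraries. Their Fantasy love values at 4 °C lay between 0.60 and 1.22, and DN51918_c0_g2, DN54634_c2_g6, DN39471_c1_g4 and DN56659_c1_g1 were called higher without replicate 3 of the controls, at 3.33, 3.30, 2.36 and 2.37.

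Several class I genes were close to absent in Oregon controls, so that their fitted fold changes have no firm base. HSP17.5-M DN32902_c0_g3 had 3 counts over the 3 Oregon controls, 1314 over the 6 °C libraries and 2246 over the 4 °C libraries. Scaled for depth, that is a ratio of 363 at 6 °C (95% counting interval 124 to 1760) and 529 at 4 °C (181 to 2568). HSP18 (DN51918_c0_g12) had 2 counts over the Oregon controls, and its ratios were 443 at 6 °C (122 to 3661) and 645 at 4 °C (178 to 5329). DN39471_c1_g3 had 1 count, and its ratios were 262 (46.8 to 10395) and 536 (96.0 to 21215). These intervals cover counting error only, and the 3 genes entered the test through other groups, in which they were high. HSP17.5-M DN32902_c0_g5 and DN32902_c0_g1, of the same cluster as DN32902_c0_g3, averaged 68.2 and 67.1 CPM in Oregon at 6 °C and 126 and 90.2 CPM at 4 °C, against 0.142 and 0.318 CPM at 25 °C. With 6 and 14 counts over the Oregon controls, they too were below the filter's minimum in each. Their rise is likewise a description.

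In Fantasy love DN32902_c0_g3 rose at both temperatures. It had 32.9, 7.99 and 83.4 CPM at 6 °C and 38.9, 50.9 and 55.3 CPM at 4 °C, against 10.4, 4.45 and 26.9 CPM at 25 °C. The 4 °C libraries were all above the controls, and those at 6 °C overlapped them. The change was 1.58 ± 0.63 at 6 °C (edgeR adjusted p = 0.0479) and 1.80 ± 0.63 at 4 °C (0.0221). The call at 6 °C was lost in 14 of the 18 fits that left out 1 library, with an adjusted p of up to 0.522 without replicate 3 at 6 °C. The call at 4 °C was lost in 4 of them, without Fantasy love replicates 2 or 3 at 4 °C and replicates 1 or 2 at 25 °C (adjusted p up to 0.107).

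HSP17.5-E (DN45800_c0_g1), also of class I, behaved differently from its class. It had 1.63, 2.24 and 2.15 CPM in Oregon at 25 °C, 8.58, 8.66 and 10.9 CPM at 6 °C, and 42.2, 35.1 and 48.6 CPM at 4 °C, and in Fantasy love 1.11, 2.06 and 1.60 CPM at 25 °C, 1.69, 1.82 and 0.880 CPM at 6 °C, and 3.73, 8.0 and 4.53 CPM at 4 °C. The 3 Oregon groups did not overlap, and in Fantasy love the 4 °C libraries alone stood above the rest. It was the only 1 of the 33 genes tested that was called between the last cooling steps in Oregon, 4 °C against 6 °C (2.16 ± 0.33, edgeR adjusted p = 0.00191), where 0.91% of all genes were called higher and 1.32% lower (2.23% in either direction). By the same test 3 of the 33 were higher and 2 lower at an unadjusted p below 0.05, and DESeq2 and limma each called the same number, 1 higher and 0 lower. In Fantasy love it was the only gene called higher at 4 °C against 6 °C (1.89 ± 0.34, edgeR adjusted p = 0.00184), where 1.83% of all genes were called higher and 7.19% lower (9.02% in either). The single gene called lower there was HSP17.4A (DN49792_c0_g3), at -1.91 (edgeR adjusted p = 0.0345), a call lost without Fantasy love replicate 2 at 6 °C (-1.19, adjusted p = 0.196), or replicate 2 or 3 at 4 °C (0.134 and 0.128). With quantile normalisation and limma the Fantasy love split between 4 °C and 6 °C was 7 higher and 1 lower, and among all genes called there 44.3% were higher, against 20.3% with the main scaling.

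Class II proteins form their own oligomers in the cytosol. DN41420_c0_g1 had 8.14, 10.8 and 4.63 CPM in Oregon at 25 °C, 996, 492 and 671 CPM at 6 °C, and 807, 823 and 1005 CPM at 4 °C. Fantasy love libraries had 775, 598 and 3945 CPM at 25 °C, 465, 647 and 891 CPM at 6 °C, and 620, 690 and 667 CPM at 4 °C. Cold libraries of both cultivars lay between 465 and 1005 CPM, with replicate 3 of the Fantasy love controls far above them and all Oregon controls far below. The gene rose in Oregon by 6.52 ± 0.64 at 6 °C (edgeR adjusted p = 3.28e-07) and 6.80 ± 0.65 at 4 °C (2.44e-07). In Fantasy love it was called lower, by -1.41 ± 0.51 at 6 °C (edgeR adjusted p = 0.0321) and -1.43 ± 0.51 at 4 °C (0.0250), with overlapping groups. Without replicate 3 of the controls these values were -0.06 and -0.14 and neither was called, and with quantile normalisation the value at 4 °C was 0.21. The call was also lost at 6 °C without replicate 1 of that group (adjusted p = 0.105) and at 4 °C without replicate 3 of that group (0.0507).

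The class II gene DN57201_c1_g1 had the same form: it rose in Oregon by 5.47 ± 0.58 and 5.66 ± 0.58, and in Fantasy love was called at -1.65 ± 0.46 (6 °C) and -1.26 ± 0.46 (4 °C). Without replicate 3 of the Fantasy love controls these were -1.05 and -0.71, not called, and at 4 °C the call was also lost without replicate 1 or replicate 3 of that group. HSP17.7 (DN52658_c2_g10) rose in Oregon by 5.73 ± 0.87 at 6 °C and 6.57 ± 0.88 at 4 °C. It had 11 counts over the Oregon controls and was below the filter's minimum in each, so this rise is a description. So is that of DN57201_c1_g1, which was below the minimum in Oregon control 3. In Fantasy love HSP17.7 was at -1.42 and -0.98, and at -0.62 and -0.23 without replicate 3 of the controls, not called in either fit. The fourth class II gene, DN41420_c0_g3, was nearly confined to Fantasy love. It had 33.4, 39.0 and 144 CPM at 25 °C, 8.38, 5.84 and 68.8 CPM at 6 °C, and 20.0, 67.4 and 43.4 CPM at 4 °C there, and at most 0.283 CPM in any Oregon library. Fantasy love was above Oregon by 8.80 ± 1.10 at 25 °C and 7.81 ± 1.03 at 4 °C. At 6 °C it was above by a ratio of 799 (95% counting interval 221 to 6602), since Oregon had 2 counts there. The gene lay below the filter's minimum (0.553 CPM) in every Oregon library. It entered the test through Fantasy love, where it was high, so its excess there is a description. It was called in no comparison of cold with 25 °C in either cultivar.

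Class III is represented by HSP17.4B (DN52943_c0_g2), named after an Arabidopsis protein of the nucleus and cytosol. In Oregon it had 4.95, 3.02 and 2.75 CPM at 25 °C, 41.1, 30.2 and 48.0 CPM at 6 °C, and 44.1, 47.3 and 82.6 CPM at 4 °C. In Fantasy love it had 111, 99.7 and 224 CPM at 25 °C, 47.6, 9.93 and 20.2 CPM at 6 °C, and 37.0, 31.8 and 34.4 CPM at 4 °C. No cold library overlapped the controls of its own cultivar, but the directions were opposite. It rose in Oregon by 3.48 ± 0.48 at 6 °C (edgeR adjusted p = 1.24e-05) and 4.02 ± 0.49 at 4 °C (3.31e-06). It fell in Fantasy love, at -2.48 ± 0.45 at 6 °C (edgeR adjusted p = 0.000253) and -2.08 ± 0.44 at 4 °C (0.000749), and at -2.05 and -1.70 without replicate 3 of the controls. Cold leaves of the 2 cultivars differed by -0.62 ± 0.43 at 6 °C (edgeR adjusted p = 0.298) and -0.75 ± 0.43 at 4 °C (0.223), Fantasy love minus Oregon.

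**Figure D4:**
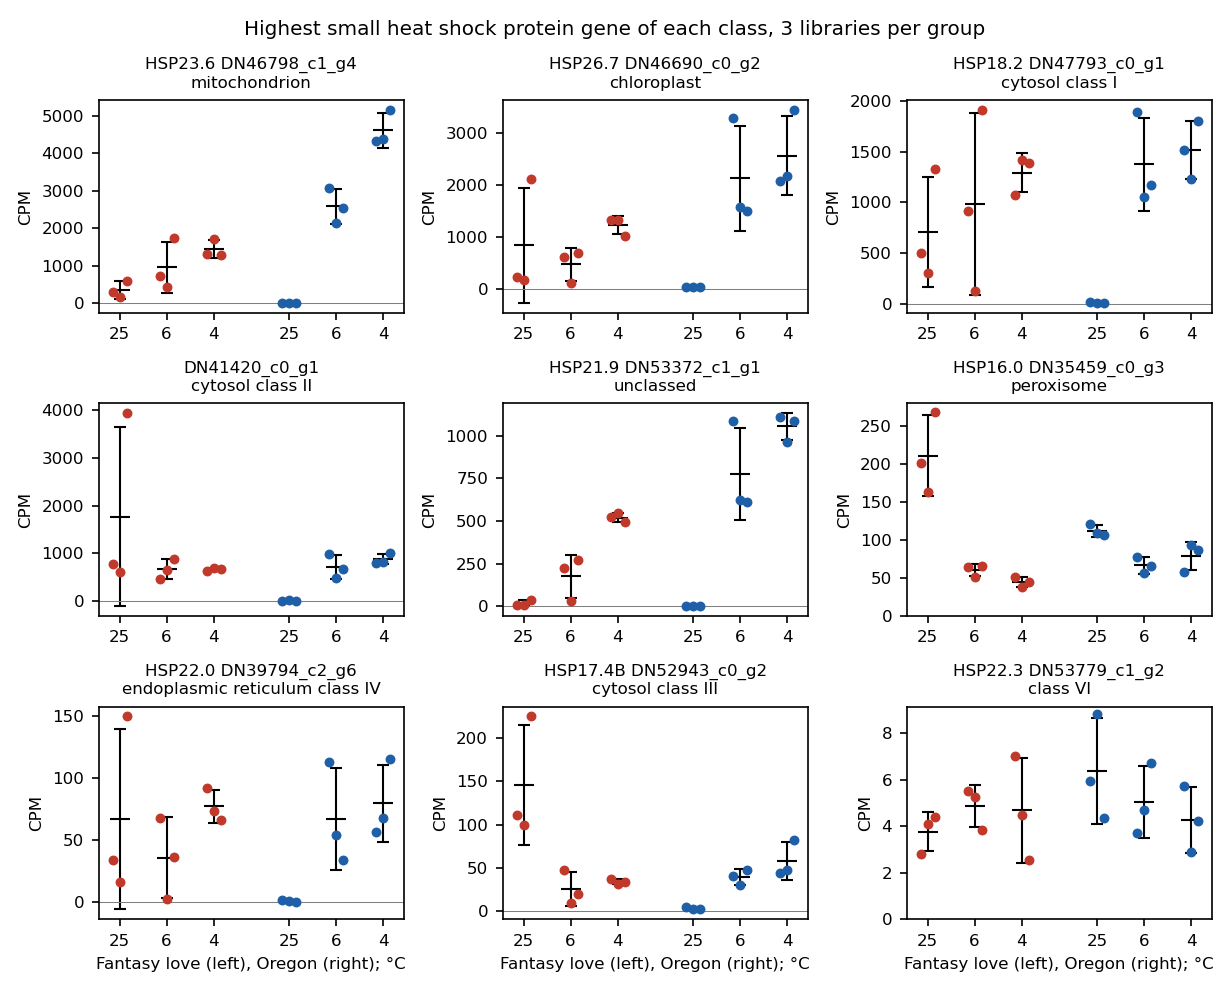
CPM of the gene with the highest mean in each class, by temperature, Fantasy love (red, left) and Oregon (blue, right); points are libraries, bars the mean ± SD of 3. Most panels show Oregon controls near 0 and wide Fantasy love 25 °C groups, HSP16.0 is highest in Fantasy love at 25 °C (163 to 269 CPM), and HSP22.3 stays under 9 CPM throughout.

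The mitochondrial HSP23.6 (DN46798_c1_g4), a chaperone of the matrix, had the highest mean CPM of the family. Oregon libraries had 12.2, 9.49 and 5.70 CPM at 25 °C, 3066, 2142 and 2537 CPM at 6 °C, and 4322, 4373 and 5154 CPM at 4 °C. Fantasy love libraries had 289, 160 and 604 CPM at 25 °C, 718, 427 and 1729 CPM at 6 °C, and 1314, 1717 and 1277 CPM at 4 °C. All cold Oregon libraries were above all Fantasy love libraries, and in Fantasy love the 4 °C libraries were above the controls while those at 6 °C overlapped them. In Fantasy love the gene rose by 1.45 ± 0.45 at 6 °C (edgeR adjusted p = 0.0149) and 2.03 ± 0.46 at 4 °C (0.00129). The 6 °C call was lost without replicate 3 of that group (0.65, adjusted p = 0.204) and without replicate 1 or 2 of the controls (1.30 and 1.07, adjusted p = 0.0590 and 0.0754). Fantasy love was below Oregon by -1.43 ± 0.45 at 6 °C (edgeR adjusted p = 0.0260) and -1.68 ± 0.46 at 4 °C (0.0128), and the 6 °C call was lost without Oregon replicate 1 or Fantasy love replicates 1 or 2 at 6 °C (-1.30, -1.27 and -1.08).

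A second transcript group in the same cluster and with the same best match, DN46798_c1_g3, went another way. It had 17.1, 16.6 and 14.2 CPM in Oregon at 25 °C, 23.4, 16.4 and 22.3 CPM at 6 °C, and 17.7, 27 and 22 CPM at 4 °C, with no call. In Fantasy love it had 2.10, 1.36 and 3.83 CPM at 25 °C, 0.225, 0.584 and 0 CPM at 6 °C, and 0.802, 0.373 and 0.125 CPM at 4 °C, all below every Oregon library. It fell there, at -3.19 ± 0.66 at 6 °C (edgeR adjusted p = 0.000807) and -2.48 ± 0.60 at 4 °C (0.00210), and was the only 1 of the 33 genes tested called lower in Fantasy love than in Oregon at 25 °C (-2.72 ± 0.53, 0.00151). The counting method is not given in the sources used here, so reads of near-identical copies in a cluster may have been split between groups. Summing all groups with this best match gave values in the direction of DN46798_c1_g4: 1.38 and 1.88 in Fantasy love at 6 °C and 4 °C, and 3.82 for Fantasy love against Oregon at 25 °C. The last was below the 5.26 of DN46798_c1_g4 alone. Over the Oregon controls DN46798_c1_g3 had 728 counts and DN46798_c1_g4 415.

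Of the 3 chloroplast genes, HSP26.7 (DN46690_c0_g2) was the largest. It had 42.5, 35.5 and 31.4 CPM in Oregon at 25 °C, 3289, 1573 and 1498 CPM at 6 °C, and 2067, 2176 and 3437 CPM at 4 °C, and rose by 5.86 ± 0.88 (edgeR adjusted p = 2.79e-05) and 6.13 ± 0.89 (1.98e-05). The Fantasy love libraries had 230, 163 and 2112 CPM at 25 °C, 614, 105 and 692 CPM at 6 °C, and 1326, 1320 and 1018 CPM at 4 °C. Replicate 3 of the Fantasy love controls was above all other libraries of that cultivar, and no change was called with all libraries (-0.83 ± 0.72 at 6 °C, 0.55 ± 0.71 at 4 °C). Without that replicate the values were 1.22 at 6 °C, not called, and 2.56 at 4 °C (edgeR adjusted p = 0.00143), called. HSP21 (DN45591_c0_g3), whose relatives in tomato and Arabidopsis protect photosystem II and plastid proteins under heat, rose in Oregon by 3.25 ± 0.31 at 6 °C (edgeR adjusted p = 2.46e-07) and 3.93 ± 0.32 at 4 °C (4.48e-08). It was at 0.10 ± 0.28 and 0.85 ± 0.28 in Fantasy love, under the 2-fold minimum. HSP22 (DN46690_c0_g3) stayed under 13 CPM in every library and was called in no comparison with all libraries. Without replicate 3 of the Fantasy love controls it was called higher there, at 2.30 at 6 °C and 3.13 at 4 °C, and without Oregon control 2 it was called higher in Oregon at 4 °C (4.03, adjusted p = 0.0194).

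HSP22.0 (DN39794_c2_g6), the class IV protein of the endoplasmic reticulum, had 1.42, 1.09 and 0.470 CPM in Oregon at 25 °C, 113, 54.4 and 33.9 CPM at 6 °C, and 56.5, 67.7 and 115 CPM at 4 °C. It had 34.2, 16.2 and 150 CPM in Fantasy love at 25 °C, 68.1, 2.66 and 36.8 CPM at 6 °C, and 91.9, 73.8 and 66.1 CPM at 4 °C. Oregon cold libraries were all above the controls, and the Fantasy love groups overlapped. Oregon control 3 was below the filter's minimum, so the Oregon rise is a description. HSP22.0 rose in Oregon by 6.08 ± 1.01 at 6 °C (edgeR adjusted p = 8.23e-05) and 6.33 ± 1.02 at 4 °C (6.04e-05), with -0.89 ± 0.78 and 0.21 ± 0.77 in Fantasy love. Without replicate 3 of the Fantasy love controls these were 0.47 and 1.54 (edgeR adjusted p = 0.657 and 0.114), and over the fits without 1 library they ran from -1.74 to 0.47 and from -0.33 to 1.54. HSP21.9 (DN53372_c1_g1), with no class in its name, had 0.991, 1.75 and 0.872 CPM in Oregon at 25 °C, 1084, 624 and 612 CPM at 6 °C, and 1109, 964 and 1087 CPM at 4 °C. In Fantasy love it had 8.08, 6.41 and 37.1 CPM at 25 °C, 226, 30.5 and 268 CPM at 6 °C, and 520, 547 and 492 CPM at 4 °C. It was the gene of the family with the largest rise in Fantasy love, 3.35 ± 0.66 at 6 °C (edgeR adjusted p = 0.000512) and 4.92 ± 0.70 at 4 °C (1.62e-05), beside 9.31 ± 0.87 (1.92e-07) and 9.75 ± 0.89 (1.42e-07) in Oregon. Of the libraries at 6 °C in Fantasy love, replicate 2 alone lay within the range of the controls.

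The peroxisomal HSP16.0 (DN35459_c0_g3) was well expressed before cooling in both cultivars. It had 122, 109 and 107 CPM in Oregon at 25 °C, 78.2, 56.2 and 65.5 CPM at 6 °C, and 57.4, 93.2 and 86.2 CPM at 4 °C. Fantasy love libraries had 202, 163 and 269 CPM at 25 °C, 64.6, 51.9 and 65.3 CPM at 6 °C, and 51.0, 38.2 and 44.1 CPM at 4 °C. Cold libraries were below the controls in both cultivars with no overlap. The fall was called in Fantasy love, at -1.80 ± 0.23 (6 °C, edgeR adjusted p = 7.11e-06) and -2.25 ± 0.23 (4 °C, 4.34e-07), while Oregon had -0.75 ± 0.22 (edgeR adjusted p = 0.00885) and -0.51 ± 0.22 (0.0612), under the 2-fold minimum. HSP22.3 (DN53779_c1_g2), of class VI, was low throughout, between 2.54 and 8.82 CPM, and was called in no comparison.

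HSP18.5-C (DN32915_c2_g2), a class I gene, differed from the Oregon pattern of its class because it was already high at 25 °C. It had 299, 346 and 278 CPM in Oregon at 25 °C, 343, 204 and 331 CPM at 6 °C, and 325, 315 and 442 CPM at 4 °C, at -0.07 ± 0.47 and 0.23 ± 0.47. Fantasy love had 794, 401 and 847 CPM at 25 °C, 90.3, 25.7 and 224 CPM at 6 °C, and 84.2, 90.8 and 89.3 CPM at 4 °C. It fell there with no overlap, at -2.58 ± 0.50 at 6 °C (edgeR adjusted p = 0.000434) and -2.95 ± 0.50 at 4 °C (9.88e-05).

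A further 4 class I genes fell in Oregon at 6 °C, and 3 of them also at 4 °C. HSP18.2 DN49792_c0_g1 shares its name, but not its cluster, with the highest class I gene. It had 20.6, 17 and 16.5 CPM in Oregon at 25 °C, 1.52, 1.25 and 3.96 CPM at 6 °C, and 3.14, 4.54 and 6.44 CPM at 4 °C, and in Fantasy love 44.8, 33.6 and 59.4 CPM at 25 °C, 8.21, 6.88 and 8.09 CPM at 6 °C, and 8.91, 5.97 and 4.70 CPM at 4 °C. Cold libraries lay below the controls of their cultivar without exception. The changes were -2.57 ± 0.38 and -2.81 ± 0.39 in Fantasy love (edgeR adjusted p = 4.03e-05 and 1.07e-05), and -2.99 ± 0.40 and -1.93 ± 0.38 in Oregon (8.61e-06 and 0.000392), 6 °C then 4 °C. Summed with the other HSP18.2 group, DN47793_c0_g1, the value took that gene's direction, at 0.32 and 0.63 in Fantasy love and 5.64 and 5.79 in Oregon. The sum mixes both groups, and its Oregon values were below those of DN47793_c0_g1 alone. Over the Oregon controls DN49792_c0_g1 had 818 counts and DN47793_c0_g1 395. HSP17.4A (DN49792_c0_g3) was at -1.75 ± 0.53 and -3.67 ± 0.58 in Fantasy love and -2.03 ± 0.53 and -2.11 ± 0.53 in Oregon, all called, though at 6 °C in Fantasy love the call was lost without replicate 1 of that group (adjusted p = 0.0533).

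HSP17.9A (DN41681_c1_g2) was at -2.17 ± 0.33 and -1.44 ± 0.32 in Fantasy love, both called. In Oregon it was at -1.46 ± 0.32 (edgeR adjusted p = 0.000971) at 6 °C, called, and -0.81 ± 0.31 (0.0376) at 4 °C, under the 2-fold minimum, and -1.09, called, without Oregon replicate 3 at 4 °C. HSP18.1 (DN36018_c0_g2) had 27.1, 22.7 and 46.8 CPM at 6 °C and 44.9, 53.4 and 53.8 CPM at 4 °C in Oregon, against 123, 103 and 102 CPM at 25 °C. It was called in Oregon at -1.76 ± 0.47 (edgeR adjusted p = 0.00420) and -1.11 ± 0.46 (0.0481), the 4 °C call being lost in 14 of the 18 fits without 1 library (adjusted p up to 0.124). In Fantasy love it fell at 4 °C (-1.54 ± 0.46, edgeR adjusted p = 0.00960) and was not called at 6 °C (-0.82 ± 0.46, 0.154), where replicate 2 stood at 65.6 CPM beside 9.22 and 19.0 CPM. Without that replicate the 6 °C value was -1.99, called. For these 4 genes the difference between the cultivars' responses was not called at either temperature (edgeR adjusted p = 0.214 to 0.892).

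At 25 °C the family differed most between cultivars. Of the 33 genes tested, 22 were called higher in Fantasy love than in Oregon and 1 lower, where 8.35% of all genes tested were called higher and 7.05% lower (15.4% in either direction), and the median log2 difference was 4.52, beside 0.00 over all genes. Without replicate 3 of the Fantasy love controls the members' median was 2.49, beside 0.00 over all genes then tested. Of the 22 genes, 7 were below the filter's minimum in every Oregon control and so were tested only because they were high elsewhere. HSP22.0, DN57201_c1_g1 and DN39471_c1_g4, also among the 22, were below it in Oregon control 3 and needed other groups to pass. Of the 21 genes that rose in Oregon cold, all but HSP17.5-E were among the 22, and the other 2 were DN41420_c0_g3 and HSP18.2 DN49792_c0_g1. Among genes that reached the filter's minimum in at least 1 Oregon control, the largest difference was 7.82 ± 0.68 (edgeR adjusted p = 4.64e-07), for DN41420_c0_g1 of class II. Without Fantasy love replicate 3 it was 6.44. Of the genes below the minimum, HSP17.7 was at 8.42 ± 0.92, and 7.58 without that replicate, and DN41420_c0_g3 at 8.80 as above. Both are of class II, and these values are a description. HSP17.4B of class III was at 5.34 ± 0.52 (edgeR adjusted p = 1.57e-06), and HSP23.6 DN46798_c1_g4 at 5.26 ± 0.54 (2.74e-06). Without Fantasy love replicate 3, 18 were called higher, and the calls of DN39471_c1_g4 (1.12), DN56659_c1_g1 (2.18), HSP18 (2.60) and HSP18.2 DN49792_c0_g1 (1.11) were lost. Of all 23 calls the other 19 were kept in every fit without 1 library. The call of DN39471_c1_g4 was also lost without any 1 Oregon control, that of HSP18 without Oregon control 1 or 2, and that of DN49792_c0_g1 without Oregon control 2 or 3.

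In the cold the difference ran the other way or was not called for most of the genes. At 6 °C 2 of the 33 genes were called higher in Fantasy love than in Oregon and 12 lower, where 12.1% of all genes were called higher and 11.3% lower (23.4% in either direction). At 4 °C 1 was higher and 9 lower, where 8.95% were called higher and 10.2% lower (19.2% in either). The gene still higher at both was DN41420_c0_g3, a description as above, and at 6 °C the other was HSP18.2 DN49792_c0_g1 (1.77). Those lower at both temperatures were HSP23.6 DN46798_c1_g4, HSP23.6 DN46798_c1_g3, HSP17.5-E, HSP18, HSP18.5-C, DN39471_c1_g4 and DN32902_c0_g1. DN39471_c1_g4 had 193, 92.3 and 118 CPM in Oregon at 6 °C, where Fantasy love had 3.15, 1.10 and 8.47 CPM, a difference of -4.97 ± 0.70 (edgeR adjusted p = 8.82e-05) with no overlap. The 6 °C call of HSP18.5-C was lost without Oregon replicates 1 or 3 or Fantasy love replicates 1 or 2 at 6 °C (-1.32 to -0.90). The 4 °C call of DN32902_c0_g1 was lost without Oregon replicate 3 or Fantasy love replicates 1 or 3 at 4 °C (-2.23 to -1.85). The counts moved with single libraries: at 6 °C 5 were lower without Oregon replicate 1 of that group and 7 without Fantasy love replicate 2, and at 4 °C 14 were lower without Fantasy love replicate 2 of the 6 °C group.

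The difference between the cultivars' responses was tested directly, as the cold change in Fantasy love minus that in Oregon. Of the 33 genes, 24 were called below 0 and 0 above it at 6 °C, where 3.97% of all genes tested were called below and 5.06% above (9.04% in either direction). At 4 °C it was again 24 and 0, where 5.04% were below and 3.86% above (8.89% in either). By edgeR's test 0 genes were above 0 at an unadjusted p below 0.05 at either temperature, and DESeq2 called 0 above and 23 below and limma 0 above and 24 below at each. The 24 were the 21 that rose in Oregon cold, of which 6 were tested only because they were high outside the Oregon controls, and HSP18.5-C, HSP16.0 and HSP23.6 DN46798_c1_g3. Among the 21, HSP22.0, DN57201_c1_g1 and DN39471_c1_g4 also needed libraries outside the Oregon controls to pass the filter. Each of the 21 was called in all 18 fits without 1 library at both temperatures. The others were less steady: at 6 °C the call of HSP16.0 was lost in 14 of the 18 fits (adjusted p up to 0.151) and that of HSP18.5-C in 5 (up to 0.0585), and at 4 °C that of HSP23.6 DN46798_c1_g3 in 5 (up to 0.0723). Without Fantasy love replicate 3 at 25 °C, 22 were below 0 at 6 °C and 23 at 4 °C, and without that library and replicate 2 at 6 °C, 23 and 24. The largest differences among genes with over 3 counts in Oregon controls were -8.59 ± 1.41 at 6 °C for DN51918_c0_g2 (edgeR adjusted p = 0.00117) and -8.23 ± 0.81 at 4 °C for DN41420_c0_g1 (1.87e-05). Over the fits without 1 library they ran from -9.09 to -6.25 and from -8.70 to -6.92. The median over the 33 genes was -5.96 at 6 °C and -5.58 at 4 °C, and -4.65 and -3.96 without Fantasy love replicate 3 at 25 °C, beside 0.09 and 0.00 over all genes then tested. Oregon controls enter both the comparison at 25 °C and this one, so these calls and those at 25 °C are not separate evidence.

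**Figure D5:**
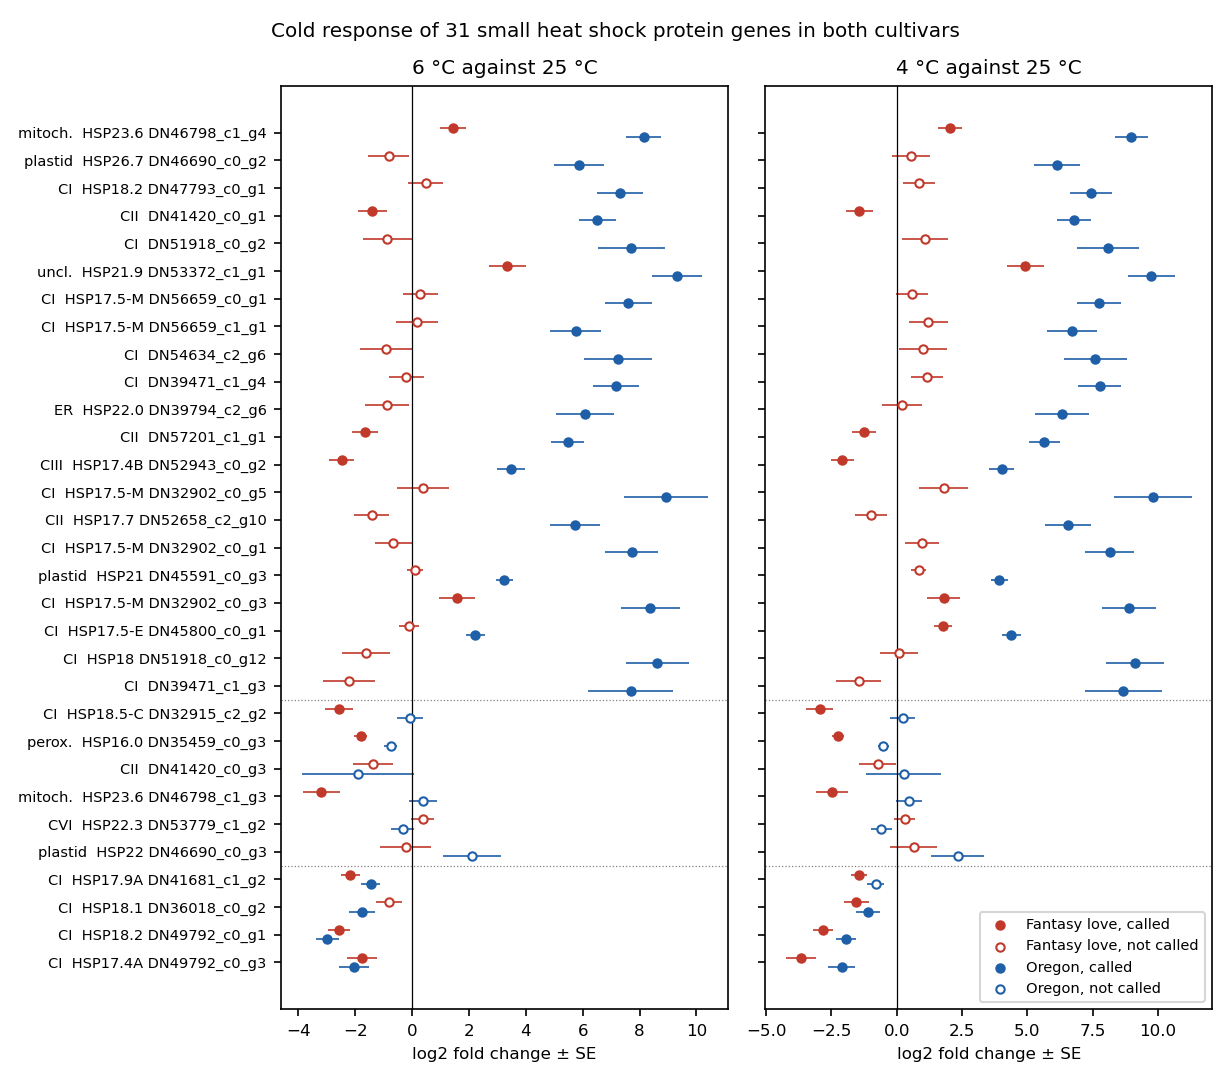
Log2 fold change ± SE of the 31 genes with plant matches at 6 °C (left panel) and 4 °C (right panel) against 25 °C, Fantasy love in red and Oregon in blue, filled where called. In the upper 21 rows every Oregon point lies between 2.22 and 9.81, and the Fantasy love points between -2.48 and 4.92.

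The make-up of the family also differed. By TPM summed over the 31 plant matches, class II took 31.4%, 36.8% and 35% of the family in Fantasy love controls, and 2.67%, 3.18% and 1.71% in Oregon controls. In the cold it took 10.3%, 44.0% and 14.7% in Fantasy love at 6 °C and 10.0% to 12.4% at 4 °C, and 7.24% to 9.50% in Oregon at either temperature. Fantasy love replicate 2 at 6 °C, whose class II share was like the controls, was also the library with the lowest family total of that cultivar. The mitochondrial genes took 2.02% to 3.15% in Fantasy love controls and 6.31% to 7.46% at 4 °C, and in Oregon 3.04% to 3.71% in controls and 15.1% to 19.4% at 4 °C. In Oregon controls the peroxisomal HSP16.0 alone took 13%, 12.5% and 14.2%. Class I held the largest share in every library except Fantasy love replicate 2 at 6 °C, from 46.9% to 72.6% in the others.

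By TPM, the leading genes of Oregon at 25 °C were ones that did not rise there in the cold: HSP18.5-C averaged 140 TPM, HSP18.1 89.8 TPM, HSP16.0 66.5 TPM and HSP17.9A 49.6 TPM. At 4 °C the leaders in Oregon were HSP23.6 DN46798_c1_g4 at 3632 TPM, HSP26.7 at 3230 TPM and HSP18.2 DN47793_c0_g1 at 3118 TPM. In Fantasy love at 25 °C they were DN41420_c0_g1 at 1472 TPM, HSP18.2 DN47793_c0_g1 at 1028 TPM and HSP17.5-M DN56659_c0_g1 at 991 TPM. These 3 genes also led in replicates 1 and 2, at 435 to 743 TPM, and replicate 3, at 1842 to 3249 TPM, raised their means. In replicate 3 HSP26.7, at 1964 TPM, passed HSP18.2 and HSP17.5-M.

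Sharing a name or a cluster did not always mean sharing a pattern. The 31 plant matches carry 22 protein names from 9 species and fall in 23 assembly clusters, 7 of which hold more than 1 of them. In cluster DN41420_c0 the gene c0_g1 rose in Oregon while c0_g3 was almost absent there. In cluster DN46690_c0, HSP26.7 rose in Oregon, and the low HSP22 had the same direction there (2.10 at 6 °C and 2.33 at 4 °C) but was not called. In cluster DN49792_c0 both members fell in both cultivars, and in DN32902_c0, DN39471_c1 and DN51918_c0 every member rose in Oregon.

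The 4 genes with matches outside plants add little to the family. HSPD1 (DN29004_c0_g1) and HSPE1 (DN21957_c0_g1), matched to human and bovine proteins, are mitochondrial chaperonins whose names meet the rule by their mass, not small heat shock proteins. They reached at most 0.964 and 0.543 CPM and had too few counts for the test. The 2 genes named hsp30, matched to fungi (Neurospora and Emericella), do carry the HSP20 domain. DN49329_c0_g4 stood at 0, 0 and 0 CPM in Oregon at 4 °C, where the controls had 0, 0 and 5.17 CPM, and DN28028_c0_g1 at 0 CPM in each, where the controls had 0, 0 and 2.08 CPM. Against a floor of 3 counts over the group they were at least 36.3-fold and 14.6-fold lower at 4 °C, but all counts of the Oregon controls came from replicate 3, and without it both groups were at 0. At 6 °C, where the Oregon libraries had 2.19, 3.11 and 3.0 CPM of DN49329_c0_g4 and 0.548, 2.15 and 0.906 CPM of DN28028_c0_g1, every library was above those at 4 °C. Against the same floor they were at least 60.1-fold and 25.8-fold lower at 4 °C than at 6 °C, and edgeR called neither in that comparison (adjusted p = 0.133 and 0.157).

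Other chaperones were read from lists chosen, like the members, with earlier results of these data known. Beside the counts below, the shares of all genes tested called higher and lower were 23.8% and 16.6% in Fantasy love at 6 °C, 28.5% and 21.6% there at 4 °C, 28.3% and 20.1% in Oregon at 6 °C, and 28.4% and 20.6% there at 4 °C. No list was tested against these shares, or against another list or between cultivars. In the added fit without the 2 Fantasy love libraries that stood apart, HSP70 proteins in that cultivar had 4 higher and 5 lower at 6 °C and 10 and 2 at 4 °C, disaggregases 2 higher at 6 °C and 5 higher and 1 lower at 4 °C, and HSP90 proteins 2 and 4, then 2 and 2. In that fit heat stress transcription factors had 17 and 3, then 16 and 4, DnaJ co-chaperones 15 and 10, then 17 and 14, chaperonins 3 and 9, then 4 and 10, and cofactors 1 and 4, then 3 and 6. With all libraries, HSP70 proteins, which take over substrates from small heat shock proteins, had 5 of 34 tested genes higher and 8 lower in Fantasy love at 6 °C and 9 higher and 2 lower at 4 °C, and 17 higher and 1 lower in Oregon at 6 °C and 20 higher and 1 lower at 4 °C. The cytosolic HSC-I (DN42070_c0_g2) had 11.7, 6.25 and 44.5 CPM at 25 °C, 52.2, 32 and 314 CPM at 6 °C, and 196, 428 and 295 CPM at 4 °C in Fantasy love, and means of 2.90 CPM, 878 CPM and 1161 CPM in Oregon. The stromal HSP70 (DN53659_c0_g2), highest of that list, fell in Fantasy love at 6 °C (-1.39 ± 0.21, and -1.08 in the added fit). Of the 12 disaggregase genes tested, 2 rose and 2 fell in Fantasy love at 6 °C and 3 rose and 1 fell at 4 °C, while in Oregon 6 rose at 6 °C and 7 at 4 °C. CLPB1 (DN56273_c1_g1), the cytosolic disaggregase, rose in Oregon by 2.92 ± 0.40 and 3.80 ± 0.42, was at 0.43 ± 0.37 and 0.27 ± 0.37 in Fantasy love, and at 25 °C was higher in Fantasy love by 2.60 ± 0.40. ClpC (DN35167_c1_g2), a chloroplast relative, rose in both cultivars, by 4.78 and 5.43 in Fantasy love and 6.31 and 6.2 in Oregon.

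HSP90 proteins, which mature signalling proteins, had 4 of 21 tested genes lower in Fantasy love at 6 °C and 3 at 4 °C, and in Oregon 6 higher and 1 lower at 6 °C and 9 higher at 4 °C. HSP83A (DN54006_c1_g1), a cytosolic HSP90, fell in Fantasy love, where the controls were at 1009, 378 and 1050 CPM (-1.65 ± 0.51 and -1.54 ± 0.50, and in the added fit -1.23, not called, and -1.31), and rose in Oregon (3.62 ± 0.55 and 4.03 ± 0.56), and the chloroplast HSP90-5 (DN42041_c2_g1) fell in Fantasy love (-1.73 ± 0.19 and -1.04 ± 0.19, and in the added fit -1.53 and -0.86, under the 2-fold minimum) and rose at 4 °C in Oregon (1.26 ± 0.19). Heat stress transcription factors include activators of heat shock genes and a class without an activator motif. Of the 24 tested, 16 rose and 3 fell in Fantasy love at 6 °C and 17 and 4 at 4 °C, and 14 and 3, then 12 and 1, in Oregon. HSFA3 (DN54590_c1_g2), an activator of heat shock genes in Arabidopsis, rose by 5.38 ± 0.50 and 4.57 ± 0.48 in Fantasy love and 6.02 ± 0.52 and 6.57 ± 0.53 in Oregon. Its response at 4 °C differed between cultivars by -2.0 ± 0.60 (edgeR adjusted p = 0.0425), Fantasy love minus Oregon, and at 4 °C its level did by -1.34 ± 0.42 (0.0288). HSFB2C (DN39711_c0_g3), of the class that lacks an activator motif, rose by 5.43 ± 0.48 and 5.61 ± 0.48 in Fantasy love and 7.34 ± 0.52 and 6.34 ± 0.50 in Oregon.

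DnaJ co-chaperones, which hand substrates to HSP70, had 16 of 67 tested higher and 9 lower in Fantasy love at 6 °C and 17 and 14 at 4 °C, and 20 and 17, then 19 and 17, in Oregon. In that list JJJ1 (DN52614_c2_g1) rose in all 4 cold comparisons (1.61 to 2.54), and the most abundant, ANJ1 (DN49416_c1_g2), was called in none of them. Chaperonins had 7 of 35 tested higher and 9 lower in Fantasy love at 6 °C and 5 and 10 at 4 °C, and 4 and 2, then 8 and 2, in Oregon. The chloroplast chaperonin subunit DN55628_c0_g1, which assists rubisco folding, fell in Fantasy love (-1.78 ± 0.22 and -1.51 ± 0.22) and was at -0.33 and 0.34 in Oregon, and RBCX2 (DN57164_c0_g1), a rubisco assembly chaperone, rose in all 4. Of 17 cofactors, 2 rose and 5 fell in Fantasy love at 6 °C and 1 and 6 at 4 °C, and 4 and 5, then 4 and 6, in Oregon. BAG1 (DN54642_c0_g3), which binds HSP70, fell in Fantasy love (-2.77 ± 0.20 and -2.25 ± 0.19). In Oregon, by the added fit, BAG1 was at -1.37 at 6 °C, called, and -0.24 at 4 °C, not called. FKBP65 (DN37763_c0_g1) was called in none of the 4 cold comparisons. RTM2 (DN37215_c2_g1), an HSP20-domain protein outside the set that limits virus movement in Arabidopsis, rose in Fantasy love by 3.26 ± 0.65 and 3.24 ± 0.64, and in Oregon was called at 6 °C alone (2.0 ± 0.74).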

How the data were processed

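Per the file headers, the authors deposited 1 table that holds estimated counts and normalized values side by side for 132108 assembled genes in 18 libraries, together with each gene's best protein match, domains and orthology. The deposited counts hold decimals in 4.21% of values and were rounded to whole numbers. The normalized values are read as TPM from their sums (981488 to 994410 per library), since the deposited table does not name the unit. Per the submitters' processing notes cutadapt 1.9 trimmed the reads, while the identifiers follow the naming of the Trinity assembler and the counting tool is not given in the sources used here. Depth was 14769977 to 21911156 counts per library, and no reference genome was used.

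Genes passing edgeR's filterByExpr (minimum count 10, total 15) entered 1 quasi-likelihood fit of 6 group means over all 18 libraries (edgeR 4.0.16, R 4.3.3, TMM scaling), from which 11 contrasts were taken and adjusted over 51670 genes. The standard error of each contrast was derived from its F statistic. The script was tested on simulated counts first. Alternatives were DESeq2 1.42.0, limma 3.58.1 on quantile-normalised values, other filters, fits of the compared groups only, a replicate block, leaving out each library, and sums by protein match. Intervals on ratios of counts (95%) and the floor of 3 counts cover counting error only.

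Named members were those called in a cold comparison or a difference in response with a mean of at least 10 CPM in the higher group, and the highest of each class. From each related list the highest gene and the called gene with the lowest adjusted p were named. Genes outside these rules are named to account for every member. The members and lists were chosen with earlier results of these data known.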

Additional observations from a re-analysis of the deposited data

Results flagged for a closer look

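Of the gene with the highest mean in each class, 8 were singled out because their change in the cold differed between cultivars in the test of that difference, given here as the log2 change in Fantasy love minus that in Oregon, 6 °C then 4 °C. The class II gene DN41420_c0_g1 was at -7.93 and -8.23. Class I HSP18.2 DN47793_c0_g1 was at -6.82 and -6.58, and HSP22.0 of the endoplasmic reticulum at -6.97 and -6.11. Mitochondrial HSP23.6 DN46798_c1_g4 was at -6.69 and -6.95, and chloroplast HSP26.7 at -6.69 and -5.58. HSP17.4B of class III was at -5.96 and -6.10, HSP21.9 at -5.96 and -4.83, and peroxisomal HSP16.0 at -1.05 and -1.74. Without Fantasy love replicate 3 at 25 °C these differences were nearer to 0 in all 8: -6.54 and -6.92 for DN41420_c0_g1, -5.99 and -5.80 for HSP18.2, -5.56 and -4.76 for HSP22.0, -6.03 and -6.35 for HSP23.6, -4.59 and -3.54 for HSP26.7, -5.49 and -5.69 for HSP17.4B, -4.71 and -3.64 for HSP21.9, and -0.82, not called, and -1.58 for HSP16.0. In 7 of the 8 the Oregon change was upward and larger; HSP16.0 had lower values in the cold in both cultivars, and its 6 °C call was lost in 14 of 18 fits without 1 library. Reasons for these differences were not tested.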

How the results depend on the processing

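Under DESeq2's Wald test 207 of the single-gene results kept their direction and side of the threshold and 1 weakened, with DESeq2 size factors 218 and 1, and with a filter of 50 counts in 3 libraries 218 and 1. Without a filter 217 kept both, 1 strengthened and 1 weakened; without a fold minimum 216 kept both and 3 strengthened; with plant matches only 215 kept both and 3 weakened. With only the groups compared in the fit 198 kept both, 2 strengthened and 17 weakened, and with quantile normalisation 208, 4 and 6. Over all fits without 1 library, 3810 kept both, 8 strengthened and 124 weakened.

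With only the groups compared, members called numbered 7 in Fantasy love at 6 °C (12 in the main analysis), 3 in Oregon at 4 °C against 6 °C (1), 0 in Fantasy love at 4 °C against 6 °C (2), and 6 at 6 °C and 17 at 4 °C between cultivars (14 and 10). Beside that 0, from edgeR, 3 members were higher and 1 lower at an unadjusted p below 0.05, DESeq2 called 1 higher and 1 lower, and limma on quantile-normalised values called 8. Without a filter they numbered 3 in Oregon at 4 °C against 6 °C and 16 between cultivars at 4 °C. In the added fit without Fantasy love replicate 3 at 25 °C and replicate 2 at 6 °C they numbered 20 and 25 in Fantasy love at 6 °C and 4 °C (12 and 14), 2 in Oregon at 4 °C against 6 °C and 16 between cultivars at 4 °C. That fit turned HSP26.7 DN46690_c0_g2 in Fantasy love at 6 °C to 1.74, and left 2.90, 3.85 and 1.33 as the ratios of summed level at 6 °C, at 4 °C and of 4 °C to 6 °C in Fantasy love. By share of counts instead of TPM the summed ratios to 25 °C were 0.874 and 1.67 in Fantasy love and 17.4 and 24.9 in Oregon, and 0.539 for Fantasy love against Oregon at 4 °C.

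Quantile normalisation turned DN41420_c0_g1 in Fantasy love at 4 °C to 0.21. Summing groups with the same protein match turned HSP18.2 DN49792_c0_g1 to 0.32 and 0.63 in Fantasy love, 5.64 and 5.79 in Oregon and -0.50 between cultivars at 6 °C. It turned HSP23.6 DN46798_c1_g3 to 1.38 and 1.88 in Fantasy love and 3.82 between cultivars at 25 °C. Each sum mixes these groups with a partner that was more abundant in most groups of libraries. In the Oregon controls the partners had fewer counts, 395 beside 818 for HSP18.2 and 415 beside 728 for HSP23.6.

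Leaving out 1 library at a time, members called ranged over 10 to 15 and 11 to 23 in Fantasy love and 25 to 27 and 23 to 27 in Oregon (6 °C, then 4 °C), 1 to 9 and 1 to 2 for 4 °C against 6 °C in Fantasy love and Oregon, 19 to 26, 7 to 16 and 8 to 15 between cultivars at 25, 6 and 4 °C, and 22 to 24 and 23 to 25 for the difference in response. Summed ratios ranged over 0.669 to 2.08 and 1.46 to 3.85 in Fantasy love, 25.4 to 35.2 and 38.8 to 46.4 in Oregon, 1.33 to 2.85 and 1.23 to 1.70 for 4 °C against 6 °C, and 7.38 to 19.4, 0.316 to 0.677 and 0.612 to 0.733 between cultivars. The lowest and highest Fantasy love ratios at 6 °C came without replicate 3 of that group and without replicate 3 of the controls.

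Replicate numbers did not pair the samples: same-numbered libraries correlated at -0.0659 to 0.104 over 18 pairs, and a library correlated best with its own number in 10 of 36 combinations. With replicate as a block, members called were 14 and 15 in Fantasy love, 25 and 24 in Oregon, 2 and 1 for 4 °C against 6 °C, 23, 17 and 11 between cultivars, and 23 and 24 for the difference in response.

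Over all genes, calls moved by more than 1.5 times with only the groups compared to 6149 higher and 5589 lower in Fantasy love at 6 °C (12279 and 8591), 35 and 428 in Fantasy love at 4 °C against 6 °C (946 and 3715), 1271 and 2463 for the same step in Oregon (470 and 682), 2424 and 2638 between cultivars at 6 °C (6227 and 5853), and 1657 and 1398, then 2872 and 4574, for the difference in response (2617 and 2052, then 1993 and 2602). Quantile normalisation gave 949 and 1248 for the Oregon step, where DESeq2 gave 799 and 1415, and 3633 and 3696, then 3938 and 4169, for the difference in response. Except where stated, the cause of these shifts was not tested. For members with 3 counts or fewer over the Oregon controls, depth limits the size of the rise to the counting intervals given.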
